A study of Mus musculus with 36 samples.

Results

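Peaks of ribosome footprints that lie in 5' untranslated regions (5' UTRs) of mouse brain mRNAs are described here. A footprint, or ribosome-protected fragment (RPF), is the stretch of mRNA that a ribosome shields from nuclease, and a peak is a place on an mRNA where footprints pile up. Each of 12 libraries had a deposited list of peaks, given as an interval on an Ensembl transcript with a height. A peak was taken as a 5' UTR peak when the middle of its interval lay 5' of the annotated coding start of the same transcript in GENCODE M21, a position rule that used no height and no comparison. By this rule 4378 of the 278002 deposited peaks were 5' UTR peaks, against 270258 in coding regions and 1599 in 3' UTRs, and the 4378 came from 1008 of the 6214 genes with a located peak.

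Ribosomes load near the 5' cap of an mRNA and scan toward the coding start. An AUG met on the way can start a short upstream open reading frame, and translating it usually lowers the yield of the main protein. Some upstream frames start at a codon other than AUG, and a few are known to hold ribosomes at a fixed place. The fragments of this study come from polysomes that sediment to the pellet of a sucrose gradient, where neuronal RNA granules with stalled ribosomes collect, and from fractions 5 and 6 of such a gradient, joined as fraction 5/6, which hold lighter polysomes. FMRP, the RNA-binding protein made from Fmr1 and lost in fragile X syndrome, is found with such granules.

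The 12 libraries fell into 4 groups of 3, wild-type (WT) and FMR1 KO, each from the pellet and from fraction 5/6. Each preparation pooled 10 brains of mice on postnatal day 5, WT animals being C57BL/6 and the others FMR1 KO, and all 12 were digested with the standard amount of nuclease in 10 mM MgCl2. Whole brains were used, so each library mixed all brain cells, and summed levels over 5 neuronal markers were 5710 to 12469.5 CPM (gene counts scaled to a common library total) against 234 to 525 CPM for 4 astrocyte markers. The deposited lists held 11389 to 36435 peaks per library, from libraries of 6765065 to 40174168 counts, or 4284209 to 21274803 without Cdk8, a single gene that held a large part of the counts. The library labelled WT fraction 5/6 replicate 3 went against its label: Fmr1 stood at 3.17 CPM there, against 64.6 to 100.1 in the other WT libraries and 4.79 to 10.7 in the FMR1 KO libraries. Of all pairs of libraries, its gene counts were nearest to those of FMR1 KO pellet replicate 3. It is kept under its label below. Without it the mean difference between pellet and fraction 5/6 was -41.3 5' UTR peaks per library (-14.3 with it), and the share of peaks near the start in FMR1 KO minus WT was -0.171 percentage points (0.923 with it), neither past the test.

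Peak middles on the same transcript were counted as 1 locus when all lay within 6 nt of each other. The study used the same distance between replicates, but matched the highest points of peaks. A locus was assigned to the 5' UTR by the median of its peak middles, so a 5' UTR peak close to the start could fall in a coding locus, and 2389 loci on 996 genes were in the 5' UTR. Sequences around 15 loci, each found in 7 to 12 libraries, are shown first as examples of 3 positions on which the rest turns; they are not a ranking, and loci found as often are not all printed. Each is 30 nt of the GENCODE M21 transcript, 5' to 3', with the middle of the peak at base 19 (base 11 in the Azin1 line), and each ATG in the window is in capitals. The first set has the middle 8 nt before the annotated start codon, which is the capital ATG of each.
Actg1: cgccgccgcgtccttcgccgatcgcaATGg
Rpl29: cgggagccgcgggttaccgtgcagacATGg
Ubb: ttcatcacatttgttaacaggtcaaaATGc
Hmgb3: aagaaggaagacgcaattcagtcaggATGg
Rpl27: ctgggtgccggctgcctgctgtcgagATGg

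On GRCm38 these middles lay at position 120348426 of chromosome 11, minus strand, for Actg1 (cytoplasmic gamma-actin), in exon 1. For Rpl29, a protein of the large ribosomal subunit, it lay at position 106429970 of chromosome 9, plus strand, in exon 2. The middle in Ubb, which encodes polyubiquitin, was at position 62551594 of chromosome 11, plus strand, in exon 1. Hmgb3, a chromatin protein, had it at position 71556188 of chromosome X, plus strand, in exon 1, and Rpl27, also of the large subunit, at position 101442451 of chromosome 11, plus strand, in exon 1. All 5 windows run across an exon junction. The Ubb window occurs base for base in transcripts of 2 other genes, Gm1821 and Gm8797, so reads there could belong to any of the 3.

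The second set lies far from the annotated start, and in each window an upstream ATG precedes the middle by 15 to 17 nt. Its frame, stop codon included, is short in most of them.
Snrpn: gagATGccagacgcttggttctgaggagtg
Zic1: tctATGccacaaatccgggaagaagtttta
Sbk1: tcATGgtggtagtggtgccctgagcccctc
Sox4: tcATGccggtctgttgcATGcaagcttctt
Spin1: tggATGgtggattaacacgaacctgtgggc
Nudt21: taATGgcgggtggtggctgctgagcgggac
Idh1: agATGctgatctaactggggccggcttatt
Dlg4: cATGccccagccccagaactccggggctgc

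Snrpn, which encodes the spliceosomal protein SmN, had this middle 426 nt before its start, at chr7:60005062-60005091, minus strand, exon 1, 15 nt into a frame of 21 nt. The Zic1 window, of a zinc finger transcription factor of the developing cerebellum, was chr9:91365380-91365409, minus strand, exon 1, 374 nt before the start and 15 nt into a 39-nt frame. Sbk1, a kinase gene, had it at chr7:126272998-126273027, plus strand, exon 1, 91 nt before the start and 16 nt into a 21-nt frame. For Sox4, a transcription factor of neuronal differentiation, it was chr13:28953508-28953537, minus strand, 498 nt before the start and 16 nt into a frame of 141 nt. In Spin1, whose protein reads histone marks, the window chr13:51123136-51123165, plus strand, exon 2, lay 83 nt before the start, and the frame was 12 nt. In Nudt21, a subunit of the factor that cleaves pre-mRNA for polyadenylation, it was chr8:94036973-94037002, minus strand, exon 1, 92 nt before the start, and the frame was 21 nt. Idh1, the cytosolic isocitrate dehydrogenase, had it at chr1:65179021-65179050, minus strand, exon 1, 59 nt before the start, with a frame of 12 nt. Dlg4, which encodes the postsynaptic scaffold PSD-95, had it at chr11:70018611-70018640, plus strand, exon 1, 291 nt before the start and 17 nt into a frame of 57 nt.

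The third set has no ATG 5 to 20 nt before the middle. The Azin1 line is shifted 8 nt in the 3' direction, with the codons for proline, proline and tryptophan in capitals instead of ATGs, for the reason given further on.
Rnf208: ttgccagcttcagcagacagagaccctggg
Azin1: acttcaacgctgagCCACCTTGGgaaccta

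Rnf208, a RING-finger ubiquitin ligase, had this middle 295 nt before its start, at chr2:25242983-25243012, plus strand, in its only exon. Azin1, antizyme inhibitor, regulates polyamine synthesis. The middle of its most recurrent peak lay 152 nt before the start, at position 38514529 of chromosome 15, minus strand, in exon 2.

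The number of 5' UTR peaks varied widely between libraries of the same group. WT pellet libraries held 494, 462 and 235 of them, and FMR1 KO pellet libraries held 395, 201 and 359. WT fraction 5/6 libraries held 904, 151 and 366, and those of FMR1 KO fraction 5/6 held 210, 232 and 369. All 4 groups overlapped, and the highest and the lowest library belonged to the same group. The peaks of a library lay on 119 to 631 genes.

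As a share of the located peaks of the library, 5' UTR peaks made up 1.36, 1.89 and 1.09% in WT pellet and 1.25, 1.09 and 1.42% in FMR1 KO pellet. They made up 3.02, 1.22 and 1.58% in WT fraction 5/6 and 1.22, 0.950 and 3.25% in FMR1 KO fraction 5/6. WT fraction 5/6 replicate 1 and FMR1 KO fraction 5/6 replicate 3 stood above the other 10 libraries. The same 2 libraries also had the most coding peaks 5 to 20 nt after the annotated start codon, 2.46 and 4.57% of their coding peaks against 1.07 to 1.81% in the others. FMR1 KO fraction 5/6 replicate 3 was the shallowest library, and WT fraction 5/6 replicate 1 was not among the shallow ones. The part of depth or of start-proximal reads in their share was not tested.

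**Figure D1:**
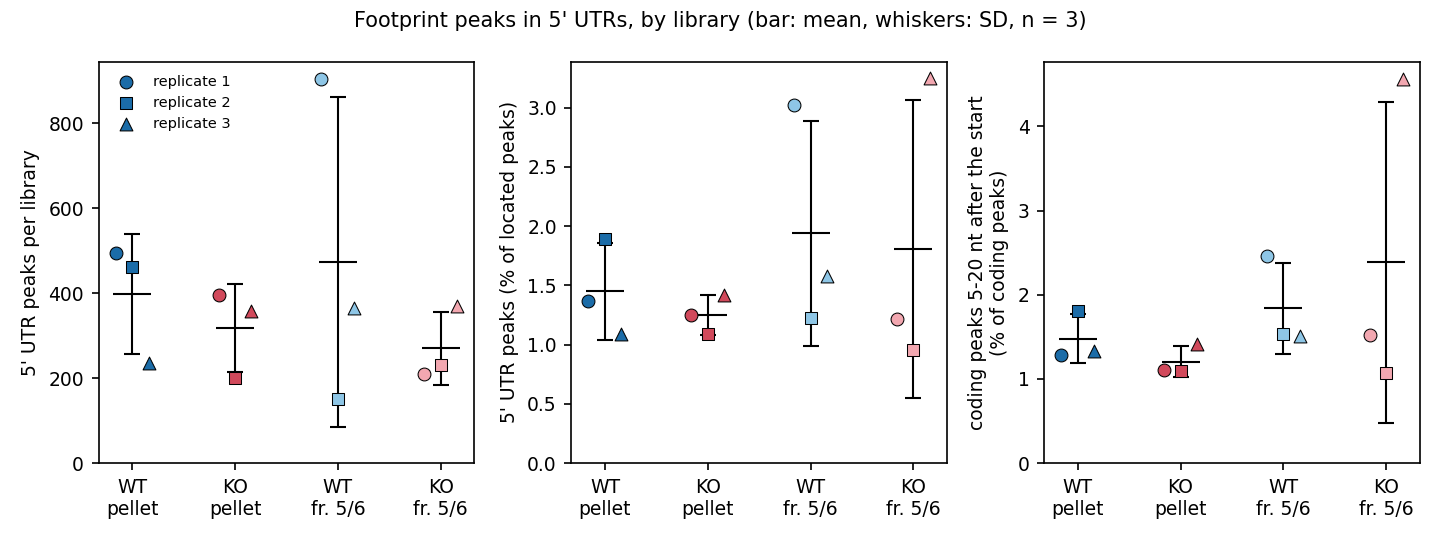
Each point is 1 library, by group on the horizontal axis and with a marker for its replicate number; the panels show 5' UTR peaks per library, 5' UTR peaks as a percentage of located peaks, and coding peaks 5 to 20 nt after the start codon as a percentage of coding peaks. Bars are means and whiskers SD (n = 3); all groups overlap in the left and middle panels and all but FMR1 KO pellet and WT fraction 5/6 in the right panel, and 1 library of each fraction 5/6 group lies above the rest in the middle and right panels.

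The pellet and fraction 5/6 were compared to see whether polysomes of the pellet carry more footprint peaks before the coding start. The pellet mean was 358 ± 119 peaks per library (SD, n = 6) and that of fraction 5/6 was 372 ± 275 (SD, n = 6), a difference of -14.3 (exact permutation test within genotype, two-sided, p = 0.945, the smallest p possible being 0.005). The sign of this difference turned when single libraries were left out: it was 93.3 without WT fraction 5/6 replicate 1, 26.2 without WT pellet replicate 3, 15 without FMR1 KO pellet replicate 2 and 10.3 without FMR1 KO fraction 5/6 replicate 3, and it was -95 without WT fraction 5/6 replicate 2. The share of located peaks was 1.35 ± 0.300% in the pellet and 1.87 ± 1.00% in fraction 5/6 (SD, n = 6 each, exact permutation p = 0.365, 0.777 adjusted over the 8 planned comparisons). Without the 2 libraries that stood apart, the difference in share was 0.108 percentage points with the pellet higher (exact permutation p = 0.54). Neither the number nor the share differed beyond the spread between libraries.

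FMR1 KO and WT were compared to see whether loss of FMRP changes how many such peaks there are. FMR1 KO libraries averaged 294 ± 89.0 peaks and WT libraries 435 ± 264 (SD, n = 6 each, exact permutation within fraction, two-sided, p = 0.275, adjusted p = 0.777). The share was 1.69 ± 0.708% for WT and 1.53 ± 0.859% for FMR1 KO libraries (exact permutation p = 0.59, adjusted p = 0.777, n = 6 each). The difference in number rested largely on 1 library: without WT fraction 5/6 replicate 1 the means differed by -33.4. The difference in share, -0.165 percentage points, turned to 0.105 without that library and to 0.0491 without FMR1 KO fraction 5/6 replicate 2, and was -0.526 without FMR1 KO fraction 5/6 replicate 3.

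Peaks in 5' UTRs were as a rule low. Their median height was 13 to 16 in the 12 libraries, against 14 to 16 for coding peaks, and the highest decile began at 28 to 41 against 35 to 53. The mean log2 ratio of the medians was -0.05 over the 12 libraries (exact permutation by sign flips, two-sided, p = 0.109). Against coding peaks of the same transcripts only, the mean was -0.11 (exact permutation p = 0.00391), with the 5' UTR median lower in 9 of 12 libraries and equal in 3. Heights are not scaled between libraries, so each library was set only against itself. The ratio did not differ between pellet and fraction 5/6 (difference -0.03 on the log2 scale, exact permutation p = 0.62, adjusted p = 0.777) nor between genotypes (-0.03, exact permutation p = 0.605, adjusted p = 0.777) beyond the spread. Set against the whole count of the gene in the same library, the height of a 5' UTR peak had a median of 2.25%, and that of a coding peak 1.53%.

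Per length, 5' UTRs held far fewer peaks than coding regions. In transcripts with a peak, 0.251 to 0.799 peaks fell on each kilobase of 5' UTR and 3.17 to 3.90 on each kilobase of coding sequence. The highest 5' UTR peak of a library had a height of 110 to 734 and lay in Actg1, Ubb, Gap43, Tuba1a, Snrpn, Ptms or Tubb2b. At the other end, 74 of the 4378 peaks had a listed height of 0.

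The position of the loci relative to the annotated start codon was uneven. Middles lay a median of 142 nt before the start, 1425 of 2389 loci (59.6%) lay over 100 nt away, and 324 (13.6%) within 12 nt. Moving toward the start, the count stepped from 6 to 12 loci at each of the positions 13 to 9 nt before it up to 46 at 8 nt and 53 at 7 nt, and it then stayed between 28 and 37 up to the start. On the coding side the highest counts were at 14, 15 and 16 nt after the first base of the start codon, with 174, 181 and 181 loci, and a smaller mode stood at 8 nt, with 138. Loci found in 3 or more libraries had the same step, with 13 at 8 nt before the start, and were most frequent at 15 nt after it, with 74. They had no separate mode at 8 nt after it, with 34 there and 40 at 9 nt.

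**Figure D2:**
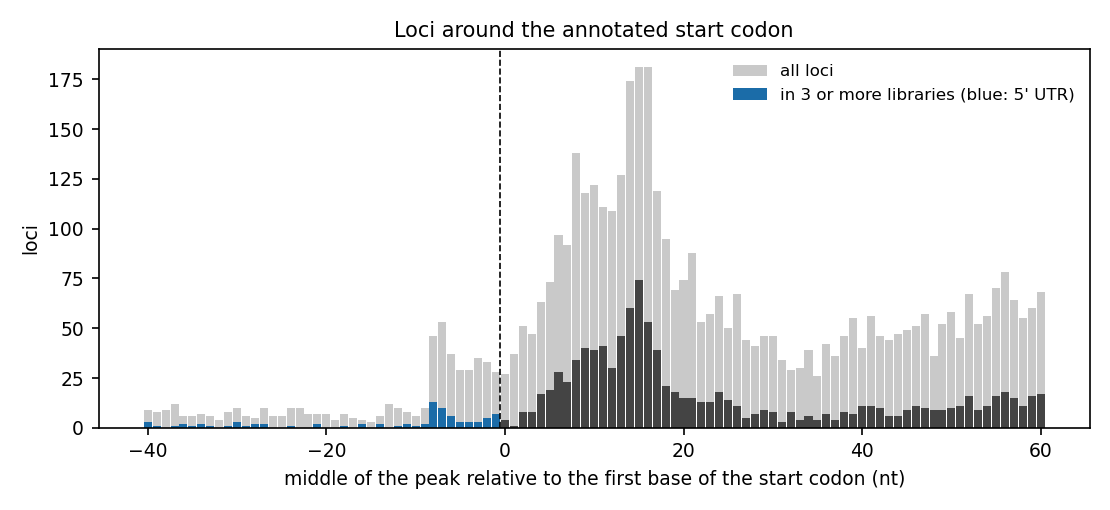
Grey bars count all loci and dark bars those found in 3 or more libraries (blue in the 5' UTR), by the distance in nt from the first base of the annotated start codon to the middle of the peak; the dashed line marks the start. The count steps up at 8 nt before the start and is highest 14 to 16 nt after it.

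The loci 8 nt before the start were often beside an exon junction. Of the 46, 21 (45.7%) had a junction within 20 nt, as had 8 of the 13 found in 3 or more libraries and all 5 found in 6 or more, which are those printed above. Over all transcripts with a located peak and a 5' UTR of at least 20 nt, the base 8 nt before the start had a junction that near in 21.9%. Of all 5' UTR loci 10.0% did. The part of read alignment at junctions in these peaks was not tested.

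By library, 13.1 to 24.5% of 5' UTR peaks lay within 30 nt of the start codon. The mean was 17.7 ± 3.63% in the pellet and 20.0 ± 3.69% in fraction 5/6 (SD, n = 6 each, exact permutation p = 0.34, adjusted p = 0.777). The difference of -2.22 percentage points was -3.68 without FMR1 KO pellet replicate 2, -1.10 without FMR1 KO pellet replicate 3 and -0.810 without WT fraction 5/6 replicate 2. The share near the start was 19.3 ± 4.05% in FMR1 KO and 18.4 ± 3.57% in WT (exact permutation p = 0.68, adjusted p = 0.777, n = 6 each). A total of 614 peaks (14.02%) had an interval that reached across the start codon, and the median interval was 24 nt wide.

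Away from the start codon, peaks sat 3' of upstream ATGs. Over loci more than 12 nt from both ends of the 5' UTR, 788 of 2061 (38.2%) had an ATG 5 to 20 nt before the middle, whereas 9.73% of all positions in the same 5' UTRs did. The share was larger in classes of loci that recurred more: 33.6% of the 1235 loci found in 1 library, 45.2% of those in 2 or more, 54.6% of the 405 in 3 or more and 65.7% of the 67 in 6 or more. The mean share over all positions of the host 5' UTRs stayed between 10.2 and 10.6% in the same 4 classes. Loci on the same 5' UTR share its sequence, so these shares are given as a description.

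The distance between the ATG and the middle was narrow. Among the 404 loci found in 3 or more libraries whose 5' UTR reaches that far (1 of the 405 does not), 48 (11.9%) had an ATG exactly 15 nt before the middle, 25 (6.19%) had it at 14 nt, 21 (5.20%) at 16 nt and 18 (4.46%) at 17 nt. A second, lower mode stood at 9 and 8 nt, with 20 and 16 of the 405 loci. In 15 of the 405 (3.70%) an ATG began 8 nt after the middle. Of these distances, 14 to 16 nt after an ATG and 8 nt before one match places where the count around the annotated start codon was high. At 8 nt after that start all loci had a mode, but loci in 3 or more libraries did not (34 there, 40 at 9 nt).

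**Figure D3:**
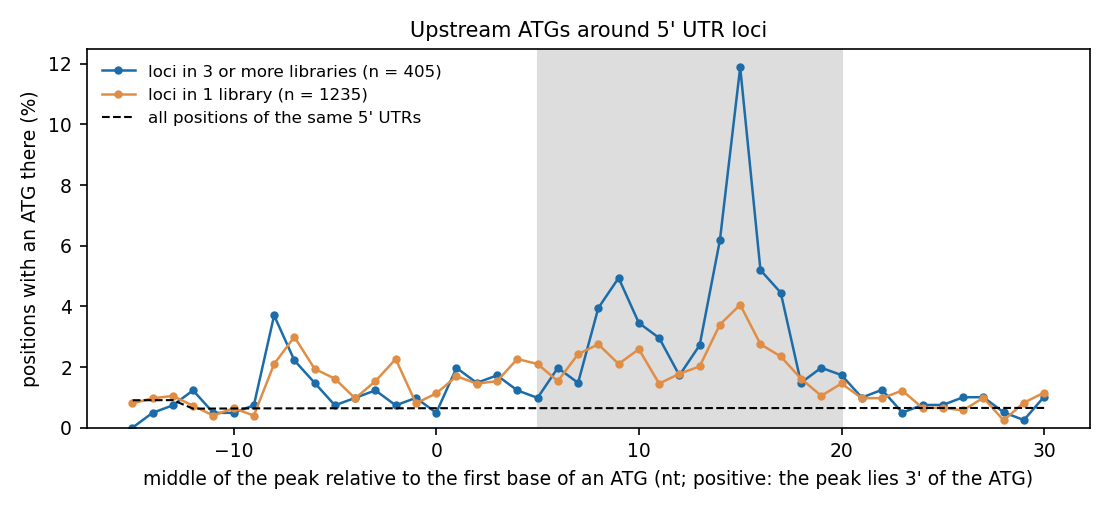
Plotted is the share of 5' UTR loci with an ATG, against the distance in nt from the ATG's first base to the peak middle. Loci found in 3 or more libraries are blue (up to 405 loci) and those in 1 library orange (up to 1235). Loci whose 5' UTR does not reach a distance are left out. The dashed line gives all positions in the 5' UTRs of all loci, and the grey band the 5 to 20 nt counted in the text. Loci in 3 or more libraries have their highest point, 11.9%, at 15 nt.

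Many loci were inside the frame of an upstream ATG. Of the 405 loci in 3 or more libraries counted above, 292 (72.1%) lay between any upstream ATG and the end of its frame. Of all positions in the 5' UTRs of all loci 31.0% did, and the mean over the 5' UTRs of these loci was 33.4%. The 405 include the 221 with an ATG 5 to 20 nt before the middle, which can lie in its frame for that reason. Loci without a close ATG were not counted apart. The ATGs 5 to 20 nt before loci in 3 or more libraries numbered 196. Their frames had a median length of 36 nt, against 42 nt for the 724 upstream ATGs of the same transcripts, and 28 (14.3%) were at most 15 nt long against 17.1%. A purine 3 bases before the ATG together with a G right after it, the flanks known to favour initiation, was present at 33.2% of the 196 and at 21.4% of the 724. The frame ended before the coding start in 93.9%, and 3 of the 196 ran into the coding region in frame.

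By library, 46.4, 43.7 and 47.2% of the 5' UTR peaks in WT pellet followed an upstream ATG by 5 to 20 nt, and 44.8, 29.9 and 39.8% in FMR1 KO pellet. In WT fraction 5/6 the values were 40.7, 32.5 and 37.4%, and in FMR1 KO fraction 5/6 they were 42.4, 36.2 and 40.4%. All 3 WT pellet libraries lay above all 6 fraction 5/6 libraries, and the FMR1 KO pellet libraries overlapped with them. The pellet mean of 42.0 ± 6.47% and the fraction 5/6 mean of 38.3 ± 3.64% (SD, n = 6 each) did not differ past the test (exact permutation p = 0.265, 0.53 adjusted over 4 comparisons added after the data were seen). Without FMR1 KO pellet replicate 2, the lowest library, the difference was 5.79 percentage points against 3.71 with it (exact permutation p = 0.03, adjusted p = 0.12). WT averaged 41.3 ± 5.66% and FMR1 KO 38.9 ± 5.28% (SD, n = 6 each, exact permutation p = 0.5, adjusted p = 0.667). That difference of -2.41 points was -0.329 without FMR1 KO pellet replicate 2 and -4.07 without FMR1 KO pellet replicate 1.

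Sequence around the loci differed from that of 5' UTRs at large mainly by the ATGs. In the 35-nt windows of the 459 loci in 3 or more libraries with a full window, 68.6% held an ATG on the transcript strand. Of all 356980 windows in the 5' UTRs of all loci, 21.9% did. Windows could run past the start, so the annotated start codon counted as an ATG for loci close to it. Of the 461 loci in 3 or more libraries, 56 lay within 12 nt of the start. The 68.6% is thus not a share with an upstream ATG. The motifs TGGA and AGGA, short elements given for FMRP binding, occurred in 40.7% against 28.0%. TGGA shares bases with ATG in ATGGA: with only AGGA, or TGGA not preceded by A, the shares were 34.6 and 26.3%. ACTT or ACTG, also given for FMRP, occurred in 16.1 and 16.03%, and CTG, a frequent non-AUG start, in 60.8 and 56.7%. Median GC content was 62.9% against 65.7%. The host 5' UTRs were long, with a median of 297 nt against 166 nt for all transcripts with a located peak, and 1949 loci (81.6%) lay in exon 1.

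Recurrence between libraries was low under this grouping, as it was for peaks elsewhere. All peak middles of a locus had to lie within 6 nt, and 239 of all loci were found in all 6 pellet libraries. The study, which matched highest points, reported more peaks shared by its 6 pellet samples. Of the 2389 loci, 1442 were found in 1 library. In 2 or more libraries 39.6% were found, against 42.2% of all loci in the series, and in 3 or more 461 (19.3%), against 17.6%. The share in 6 or more libraries was 3.26% (78 loci), against 1.58% of all loci and 1.55% of coding loci. Only 3 loci (0.126%) were found in all 12, where the share of all loci was 0.0693%. The median of the locus heights was 13 for loci in 1 library and 19.8 for those in 6 or more.

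**Figure D4:**
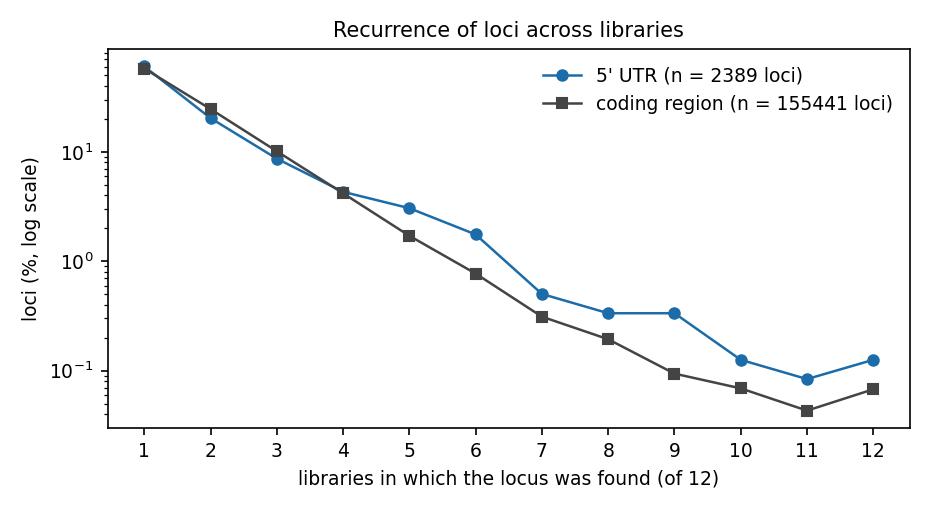
The percentage of loci (log axis) found in each number of libraries, from 1 to 12, for the 2389 loci in 5' UTRs (circles) and the 155441 in coding regions (squares). Both curves fall steeply, and from 4 libraries upward the 5' UTR curve lies above the coding curve.

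The 3 loci found in every library were those of Actg1, Snrpn (426 nt before the start) and Rnf208 (295 nt before). At Actg1 heights were 299, 262 and 238 in WT pellet and 297, 128 and 181 in FMR1 KO pellet. In fraction 5/6 they were 582, 91 and 159 in WT and 134, 220 and 190 in FMR1 KO. The highest and lowest values again came from WT fraction 5/6. At Snrpn the heights in WT were 189, 156 and 95 in the pellet and 453, 110 and 129 in fraction 5/6. In FMR1 KO they were 146, 111 and 116 in the pellet and 120, 129 and 128 in fraction 5/6. Apart from WT fraction 5/6 replicate 1, all Snrpn values lay between 95 and 189. At Rnf208 the heights in WT were 122, 66 and 36 in the pellet and 88, 22 and 43 in fraction 5/6. In FMR1 KO they were 63, 59 and 67 in the pellet and 72, 108 and 28 in fraction 5/6, so that all groups overlapped.

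To compare these loci between groups, heights were divided by the counts of the gene in the same library and are given per 1000 counts. The Snrpn locus stood at 77.3 ± 18.6 in WT libraries and 57.9 ± 10.8 in FMR1 KO libraries (SD, n = 6 each), a log2 difference of -0.41 for FMR1 KO minus WT (exact permutation p = 0.03, 0.18 adjusted over 6 comparisons). Scaled to library counts instead, the genotype difference was -0.03 (exact permutation p = 0.9, adjusted p = 0.99). Its pellet and fraction 5/6 values were 61.1 ± 8.46 and 74.1 ± 22.7 (exact permutation p = 0.19, adjusted p = 0.285, n = 6 each), a log2 difference of -0.23 that was -0.70 when scaled to library counts (exact permutation p = 0.03, adjusted p = 0.18). The Rnf208 locus held 348 ± 31.9 per 1000 gene counts in the pellet and 287 ± 87.2 in fraction 5/6 (exact permutation p = 0.095, adjusted p = 0.285, n = 6 each). With heights scaled to library counts as for CPM, its direction turned, with means of 4.72 in the pellet and 5.57 in fraction 5/6 (log2 difference -0.16, exact permutation p = 0.57, adjusted p = 0.855). At Actg1 the means were 25.96 ± 5.46 and 29.7 ± 10.9 (exact permutation p = 0.545, adjusted p = 0.64, n = 6 each). No comparison passed the adjustment (lowest adjusted p 0.18), nor did any when the library labelled WT fraction 5/6 replicate 3 was left out (lowest 0.15, an alternative chosen after seeing the data). Per gene count the Rnf208 locus was thus the highest of the 3 and Actg1 the lowest, and all 23 located peaks of Rnf208 over the 12 libraries lay in its 5' UTR. The Rnf208 counts used as the divisor were only 97 to 326 per library, and they may include reads of the peak itself.

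**Figure D5:**
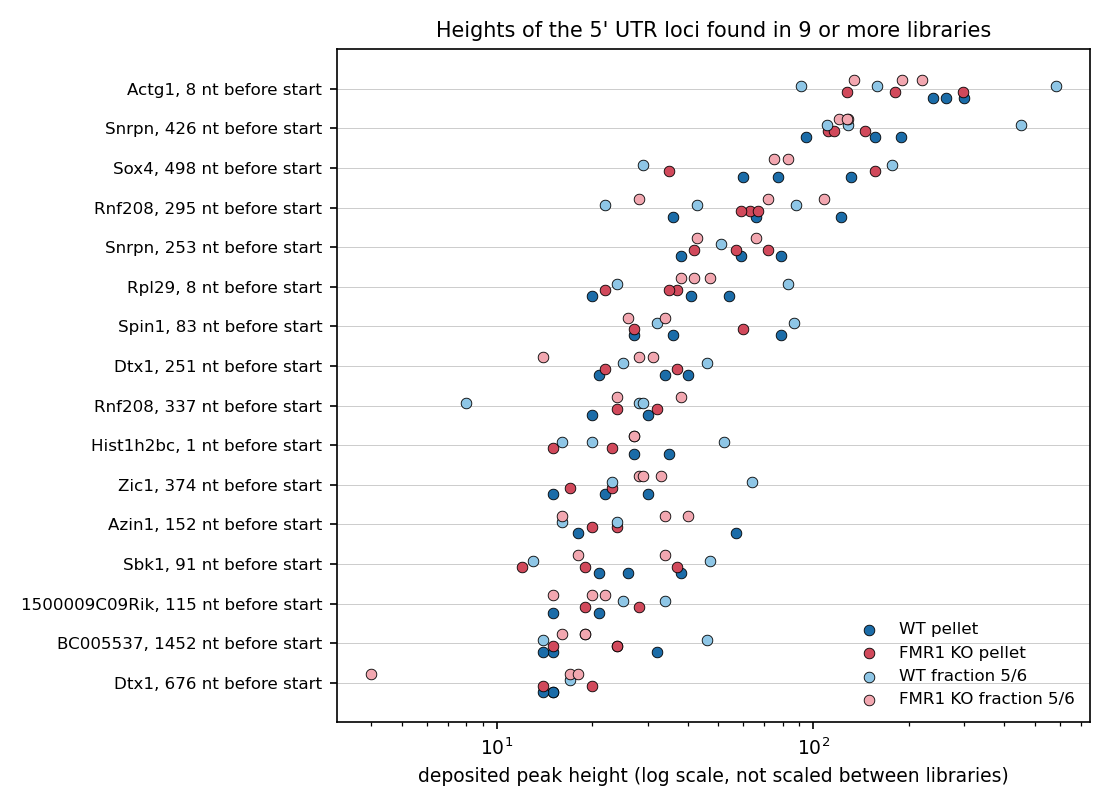
Deposited peak heights (log axis, not scaled between libraries) of the 5' UTR loci found in 9 or more libraries, 1 row per locus with its distance before the start codon; each point is 1 library, coloured by group. Actg1, with a median of 205, and Snrpn at 426 nt, with 128.5, are the highest rows.

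The next most recurrent loci were those of Rpl29 and BC005537 in 11 libraries, and of Dtx1, Zic1 and Sbk1 in 10. Dtx1, a ubiquitin ligase of the Notch pathway, had its locus 251 nt before the start, 18 nt after an ATG whose frame is 15 nt long, so that the middle lay past its end, but also 707 nt into another upstream frame of 798 nt, with a median height of 29.5. The Zic1 and Sbk1 loci had median heights of 25.5 and 23.5. Among the loci in 9 libraries were those of Sox4 (median height 77), Spin1 (34), Azin1 (24) and a locus in Hist1h2bc, a histone H2B gene, whose middle was 1 nt before the start (27). Kif5c, a neuronal kinesin heavy chain, had a locus in 8 libraries with a median height of 83, and Idh1 one of 122. At Idh1 the heights were 137 and 141 in WT pellet, 277 and 97 in FMR1 KO pellet, 366 and 107 in WT fraction 5/6 and 87 and 94 in FMR1 KO fraction 5/6, and each group had 1 library without the peak. Of the loci named here, 4 had a frame of 12 nt, those of BC005537, Spin1, Idh1 and, in 1 library, Atf4. Their middles lay 14 to 16 nt after the ATG. In a 12-nt frame this is the same as 5 to 7 nt after the first base of the stop codon.

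Snrpn had a second recurrent locus, 253 nt before its start in exon 3, in 9 libraries with a median height of 57. This position is coding in Snurf, the small protein encoded upstream of SmN on the same mRNA, as a frame of 216 nt, and the window is shared with the annotated transcripts of Snurf and Gm38393. Such overlap was rare over all loci: 56 of the 2389 were coding in another transcript of the gene, 17 in another gene, and 63 in a curated RefSeq protein. Lonrf2 was among the latter, with a locus in 7 libraries that lay 9 nt into a frame continuous with the coding region.

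Pellet and fraction 5/6 shared their recurrent loci. All 6 pellet libraries held 7 loci (0.293%, against 0.151% of all loci), those of Actg1, both of Snrpn, Rnf208, Rpl29, BC005537 and Sbk1. All 6 fraction 5/6 libraries held 4 (0.167%, against 0.101%), the 3 found in all 12 libraries among them. No 5' UTR locus was in all 6 pellet libraries and absent from fraction 5/6, or the reverse, where 0.00315% and 0% of all loci were. With at least 5 pellet and at most 1 fraction 5/6 libraries there were 2 (0.0837%, against 0.0687%), in Sobp at 362 nt and in Ppp2r2a at 6 nt before the start, and none the other way round (0.0252% of all loci).

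Between genotypes, 33 loci were in all 3 WT pellet libraries (1.38%, against 0.749% of all loci) and 15 in all 3 FMR1 KO pellet libraries (0.628%, against 0.535%). Of the 33, 25 (75.8%) were found in at least 1 FMR1 KO pellet library, and of the 1144 such coding loci 72.1% were. Of the 15, 13 (86.7%) were found in a WT pellet library, against 76.2% of coding loci. WT pellet libraries had 21582 to 36214 located peaks and those of FMR1 KO pellet 18505 to 31702, and the part of this in the counts was not tested. In fraction 5/6, 18 loci (0.753%, against 0.394% of all loci) were in all 3 WT libraries and 17 (0.712%, against 0.477%) in all 3 FMR1 KO libraries.

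The 8 loci in all 3 WT and no FMR1 KO pellet library (0.335%, against 0.207% of all loci) were in Irgq, Selenow, Ppp2r2c, Nr4a3, Dusp26, Samm50, Dr1 and Dlg3. At Irgq, 120 nt before the start, heights were 79, 60 and 43 in WT pellet, and the peak was also found in WT fraction 5/6, at 89, 23 and 42, and in FMR1 KO fraction 5/6 replicate 3, at 40. Selenow, a selenoprotein, had heights of 72, 63 and 32 in WT pellet and of 27 and 28 in FMR1 KO fraction 5/6. Each of the 8 was found in at least 1 fraction 5/6 library. The reverse held for 2 loci (0.0837%, against 0.126%), in Btg1, an antiproliferative gene, 292 nt before the start with heights of 18, 14 and 3, and in B430305J03Rik. Also in fraction 5/6, 3 loci were in all WT and no FMR1 KO library (0.126%, against 0.0996%) and 4 the other way round (0.167%, against 0.123%). The library labelled WT fraction 5/6 replicate 3 enters these counts for fraction 5/6.

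Peaks in 5' UTRs were spread unevenly over genes. A single locus was found in 535 of the 996 genes, and 5 or more in 114. At the top were B430305J03Rik with 28 loci in a 5' UTR of 1629 nt with 19 ATGs, BC005537 with 25, Nr2f1, a nuclear receptor of cortical patterning, with 24, Vash1 with 24, and Pou3f3, a neuronal transcription factor, and Pak6, a kinase, with 20 each. A 5' UTR peak was found in all 12 libraries for 30 genes and in 1 library for 425. In 90 genes no coding peak was listed in any library.

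Some mRNAs had most of their peaks before the start codon. Of the 113 genes with 10 or more 5' UTR peaks, 34 had at least 50% of their located peaks there, a limit set after the values were seen. All 58 peaks of BC005537, all 49 of B430305J03Rik and all 23 of Rnf208 were in the 5' UTR, as were 49 of the 56 of Pak6. Among genes of the synapse, 22 of the 23 peaks of Dlg4 were, although its coding region is 2175 nt long, and 22 of the 25 of Cnih2, an auxiliary subunit of AMPA receptors. All 20 of Neto1, an auxiliary subunit of kainate receptors, and all 19 of Cdk16, a kinase of vesicle traffic and neurite growth, were 5' UTR peaks. So were all 19 of Tesk1, which phosphorylates cofilin, all 15 of Nudt21 and all 11 of Lhx2, a transcription factor of the forebrain. The Dlg4 peaks made 9 loci and came from all 12 libraries. The one printed above was found in 7, with heights of 26, 28 and 17 in WT pellet, 14 in FMR1 KO pellet, 24 and 12 in WT fraction 5/6 and 5 in FMR1 KO fraction 5/6.

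Azin1 had recurrent loci of which none followed an ATG closely. Its mRNA is known for an upstream conserved coding region that starts at a non-AUG codon, and in which polyamines hold ribosomes at a proline-proline-tryptophan sequence. Of its 89 located peaks, 38 were in the 5' UTR, in 13 loci over the 12 libraries, and no ATG lay 5 to 20 nt before any middle. In the annotated sequence a reading frame of 58 codons without a stop runs from 304 to 130 nt before the start, and 12 of the 13 loci lay in it. Another frame has a longer open stretch, of 123 codons from 590 to 221 nt, which covers 6 of the 13 loci. That stretch also holds proline, proline and tryptophan codons, at 332 nt. In the remaining frame, open stretches from 288 to 192 nt and from 189 to 81 nt held 8 and 4 of the loci. The number of loci inside open stretches thus does not set the frame of 58 codons apart. The 58-codon stretch holds the 3 codons printed in capitals, whose first base is 148 nt before the start, and the most recurrent middle was at 152 nt. Heights there were 57 and 18 in WT pellet, 24 and 20 in FMR1 KO pellet, 16 and 24 in WT fraction 5/6 and 40, 34 and 16 in FMR1 KO fraction 5/6, so that the peak was present in every group, in 2 or 3 of its libraries.

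Azin1 was 1 of 20 listed genes known for upstream frames or non-AUG starts. Of the 20, 10 had a located peak and 6 had a 5' UTR locus, where 996 of all 6214 genes with a located peak did, 18 loci in all, of which 13 were those of Azin1. Atf4, the stress-response transcription factor with inhibitory upstream frames, had 1 locus in 1 library, 14 nt after an ATG with a frame of 12 nt. Ifrd1 had 1 in 2 libraries, and Eif5, Eif1 and Eif4g2, initiation factors or related to them, had 1 each in 1 library. None of the 115 located peaks of Eprs, the 13 of Odc1 or the 2 of Fmr1 was in the 5' UTR.

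Of 9 listed cytoskeletal and synaptic genes, Dlg4, Tuba1a and Tubb2b had 5' UTR loci. The Tuba1a locus was in 2 libraries and that of Tubb2b in 1, with a height of 638. Map1b, Camk2a, Actb, Arc, Tubb2a and Tubb3 had located peaks and none in the 5' UTR.

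Messenger RNAs of ribosomal proteins and elongation factors, a class known for a pyrimidine tract at the 5' end, formed the largest list. Of its 91 genes 84 had a located peak and 20 a 5' UTR locus, against 996 of the 6214. Their 28 loci were near the start: 18 (64.3%) within 12 nt of it, against 13.6% of all loci, and none followed an upstream ATG by 5 to 20 nt, as 834 of all 2389 loci did. Of the 28, 6 were found in 3 or more libraries, those of Rpl29 and Rpl27 among them. These shares take no account of 5' UTR length, which limits how far before the start a locus can lie.

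Whether the mRNAs that carry these peaks were themselves enriched was asked with the gene counts, in edgeR quasi-likelihood fits, with p-values adjusted over every gene in the fit. Between pellet and fraction 5/6 in FMR1 KO, 120 of 995 host genes (12.1%) had an adjusted p under 0.05, 81 higher and 39 lower in the pellet, and of all genes 11.5% did (9.11% higher, 2.4% lower). Among the host genes that were higher, 4 that encode very large proteins, picked after their values were seen, were Herc1, a giant ubiquitin ligase (log2 fold change 3.33 ± 0.203 SE, adjusted p = 0.00127), Htt, huntingtin (2.28 ± 0.154, adjusted p = 0.00127), Bsn, the presynaptic scaffold bassoon (2.08 ± 0.167, adjusted p = 0.00168), and Nbea, neurobeachin (2.09 ± 0.204, adjusted p = 0.00281). The lower calls did not hold in every fit: the host genes higher and lower were 41 and 0 with a replicate block, 39 and 0 without FMR1 KO pellet replicate 1, 42 and 0 without pellet replicate 3, 35 and 0 without FMR1 KO fraction 5/6 replicate 1, and 51 and 2 without fraction 5/6 replicate 3. With library size as the sole scaling 6 host genes passed, the median of all genes then shifting by -0.60. By DESeq2 186 did.

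Actg1, Snrpn, Rnf208, Azin1, Dlg4 and Ubb, hosts of loci described above, were not among the called genes. In FMR1 KO, log2 fold changes of the pellet over fraction 5/6 were -0.01 for Actg1, -0.34 for Snrpn, -0.31 for Rnf208, -0.34 for Azin1, -0.15 for Dlg4 and -0.72 for Ubb, with edgeR adjusted p from 0.0841 for Ubb to 0.984 for Actg1. In WT, 0 of 994 host genes passed in the same comparison by edgeR, and 0.023% of all genes did (0.0153% higher, 0.00765% lower). There, 50 host genes had an unadjusted p under 0.05, and DESeq2 called 2. Without the library labelled WT fraction 5/6 replicate 3, edgeR called 118 of 995 (11.9%, against 9.64% of all genes), 16 of them lower in the pellet and the others higher. Between FMR1 KO and WT pellets, 0 of 994 host genes passed by edgeR, against 0.015% of all genes, with 44 at an unadjusted p under 0.05 and 1 call by DESeq2. Fewer mRNAs in a fraction and fewer ribosomes on each mRNA cannot be told apart in these counts.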

How the data were processed

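Peak files were available for 12 RPF libraries, 3 in each of 4 groups taken from the sample labels. Per the methods and the submitters' processing notes, the authors trimmed reads with cutadapt 2.10, removed ribosomal and non-coding RNA with Bowtie2 2.3.5, aligned to GRCm38 (Ensembl release 102) with STAR 2.7.8a, removed PCR duplicates with Picard and SAMtools 1.19.2, and counted genes with featureCounts 2.2.0. The deposited peak heights are coverage signal at the peak, not scaled for depth, and the deposited gene table holds raw counts; 18 columns of other libraries were not used, and whether UTR reads were counted is not given in the sources used here. A peak was kept by the authors when its highest point exceeded the transcript average by a set factor.

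Here each interval was placed on its transcript in GENCODE M21, of the same build, whose models can differ from release 102; 276235 of 278002 peaks could be located. The middle of the interval stood for the highest point. Library values were compared by exact permutation within strata (400 arrangements) with Benjamini-Hochberg adjustment, and gene counts by edgeR 4.0.16 (R 4.3.3) with TMM and filterByExpr on protein-coding genes, SE being the log2 fold change over the square root of F. DESeq2 1.42.0, other scalings and filters, other matching distances, other rules for the interval and leaving out each library were alternatives. Cdk8 was left out of the library totals behind CPM. The scripts were tested on simulated data. The members and lists were chosen with earlier results of these data known, and the window of 5 to 20 nt after an ATG was set after the distances were seen. Named loci were those found in all 12 libraries, those particular to a fraction or genotype by presence, the genes with most loci and the listed genes; other recurrent loci were added after their values were seen. Not all same-numbered libraries deviated together and no label ties a number to shared animals, so numbers were not taken to pair the samples. Nothing in the sources used here says whether replicates share animals beyond the pooling of 10 brains. Per the methods, the 3 replicates of a condition were given different linkers and then pooled before reverse transcription, ribosomal RNA depletion and PCR. The p-values therefore measure the spread between preparations within a pool. Differences between groups cannot be told apart from differences between pools. Sequences are from GENCODE M21 transcripts; none is shown for chromosome 18. Results for 1 recurrent locus are not reported here.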

Additional observations from a re-analysis of the deposited data

How the results depend on the processing

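No contrast between fractions or genotypes reached an adjusted p under 0.05 in any of the library-level alternatives (lowest 0.12). Differences without a call changed sign as follows. With whole intervals before the start, the near-start share in FMR1 KO minus WT was -0.455 points, and with peaks at or above the median height the log2 height ratio was 0.0483 (pellet) and 0.00219 (genotype). Leaving out single libraries, or WT fraction 5/6 replicate 1 and FMR1 KO fraction 5/6 replicate 3 together, gave ranges for pellet minus fraction 5/6 of -95 to 118 peaks, -0.737 to 0.108 points of share, -3.68 to -0.810 points near the start, 2.05 to 5.79 points after an upstream ATG and -0.0599 to 0.00706 in log2 height. For FMR1 KO minus WT they were -222 to -33.4 peaks, -0.526 to 0.105 points of share, -0.533 to 2.33 points near the start, -4.07 to -0.329 points after an upstream ATG and -0.407 to 0.467 points of coding peaks after the start. The height of 5' UTR against coding peaks ranged from -0.0704 to -0.0362 over these, and its exact permutation p was under 0.05 with whole intervals (-0.0664), peaks at or above the median height (-0.0940), coding peaks of the same transcripts (-0.113), without FMR1 KO fraction 5/6 replicate 3 (-0.0640, exact permutation p = 0.0312), and without it and WT fraction 5/6 replicate 1 (-0.0704, exact permutation p = 0.0312). Matching within 12 nt gave 13 loci in all 6 pellet libraries, and linking peaks in chains gave 19 there, 11 in all 6 fraction 5/6 libraries and 9 in all 12. Leaving out libraries gave 7 to 12 for the pellet (12 without FMR1 KO pellet replicate 2), 4 to 10 for fraction 5/6 and 3 to 5 for all 12 (10 and 5 without WT fraction 5/6 replicate 2). Host genes called between pellet and fraction 5/6 in FMR1 KO were 186 by DESeq2, 6 with library size alone, 41 with a replicate block and 35 to 122 without single libraries (39 and 42 without pellet replicates 1 and 3, 35 and 53 without fraction 5/6 replicates 1 and 3); in WT they were 2 by DESeq2, 1 with library size alone, and 0 to 118, and between the pellets of FMR1 KO and WT 1 and 5. Of 18 same-numbered pairs of libraries 8 correlated above 0.1, from -0.124 to 0.278, and the replicate block changed no library-level call. Scaled to library counts, the Actg1 genotype difference was 0.00854 and the Rnf208 fraction difference -0.155. The cause of these changes was not tested.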
